A study of Danio rerio with 10 samples.

Results

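The 10 genes described here encode enzymes that make glucose or store and release it as glycogen in zebrafish (*Danio rerio*) larvae. Of these genes, 4 belong to gluconeogenesis (*pck1*, *pck2*, *fbp1a* and *fbp1b*), 3 to glycogen synthesis (*gyg1a*, *gys1* and *gys2*) and 3 to glycogen breakdown (*pygma*, *pygmb* and *pygl*). They were chosen by symbol and pathway, without a rule on their values but with earlier results of these data known. Each symbol stood for 1 of the 32520 genes listed. All 10 passed the filter on low values, which 21563 genes passed, and each had between 209 and 22256 reads in every sample.

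Gluconeogenesis builds glucose from lactate, amino acids and glycerol. Phosphoenolpyruvate carboxykinase, the product of *pck1* in the cytosol and of *pck2* in mitochondria, opens the path from oxaloacetate, and fructose-1,6-bisphosphatase (*fbp1a*, *fbp1b*) removes a phosphate further on. Glycogen is started by glycogenin (*gyg1a*), extended by glycogen synthase (*gys1*, *gys2*) and shortened by glycogen phosphorylase (*pygma*, *pygmb*, *pygl*). In mammals, GYS2 and PYGL are the liver forms, GYS1 is the form of muscle and most other tissues, and PYGM is the form of muscle. Mammalian *Pck1* is a textbook case of a gene switched on by fasting hormones and glucocorticoids and switched off by insulin.

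RNA was sequenced from pools of whole wild-type larvae of the AB strain at 5 days post fertilization (dpf), with 75 larvae per pool in the sample labels and another pool size in the methods. All groups were kept in 0.1% DMSO. The control group (replicates 1, 2 and 4) had the solvent alone, the POP75× group (replicates 2, 3 and 4) a mixture of persistent organic pollutants at 75 times its level in human blood, and the POP125× group (replicates 1, 2, 3 and 4) the same mixture at 125 times that level. Exposure began within hours of fertilization and lasted 5 days by the labels. Expression is given in normalized counts, for which the reads on a gene were divided by the size factor of the sample, and the samples held 13659239 to 20267255 reads on genes.

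The samples did not group by exposure. Clustering over all tested genes put POP125× replicates 3 and 4 with control replicate 1 and POP75× replicate 4 (set 1). It joined POP75× replicate 3 to control replicates 2 and 4 (set 2), and POP125× replicates 1 and 2 to POP75× replicate 2 with no control among them (set 3). The samples also differed in organ genes. POP75× replicate 3 had the highest summed level of 15 liver, 18 skeletal muscle, 12 intestine and 9 exocrine pancreas markers of all samples. Its sums of 9 heart muscle, 10 kidney tubule and 10 brain markers were the highest as well. That sample held the most reads on genes, 20267255, with a size factor of 0.938. Its reads divided by that factor come to more than in any other sample, which lifts its sums in general. The part of this scaling in its marker sums was not tested. The skeletal muscle sum was 2013230 normalized counts in POP75× replicate 3, 891679 and 894057 in the other POP75× samples and 844191 to 1281671 in control samples. All of the liver, skeletal muscle, intestine and exocrine pancreas markers had reads in every sample. In RNA of whole larvae, fewer cells of a type and less RNA per cell cannot be told apart, and the part of the organ content in the values given here was not tested.

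At POP125×, glycogen synthase *gys1* was the gene of the 10 that passed the test, and it rose 1.82-fold in mean normalized counts. The test was limma with Benjamini-Hochberg adjustment over all genes tested, at an adjusted p of 0.05, which called 1.7% of all genes in this comparison, 1.35% higher and 0.348% lower. A further 5 of the 10 had an unadjusted p under 0.05 without passing. With *gys1* this made 6 of the 10, beside 4518 of the 21563 genes tested. The samples of POP125× all lay above the control samples for *pck1*, *fbp1a*, *gyg1a* and *gys1*, where 12.4% of all tested genes did so, and all lay below them for *pygl*, where 11.6% did so. The median log2 fold change of the 10 genes was 0.19, beside -0.0082 over all genes tested.

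At POP75×, none of the 10 genes passed the limma test, which called 0% of all genes. At an unadjusted p under 0.05 there were 4 of these genes in limma, beside 1274 of the 21563 genes tested. DESeq2 on the recovered reads called 2 (*gys1* and *gyg1a*), where it called 0.589% of all genes. The edgeR test called none. In normalized counts, the POP75× samples all lay above the control samples for *pck1*, *gyg1a*, *gys1* and *pygma*, where 4.94% of all tested genes did so. The plot of the values by sample and that of the fold changes show both doses.

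**Figure D1:**
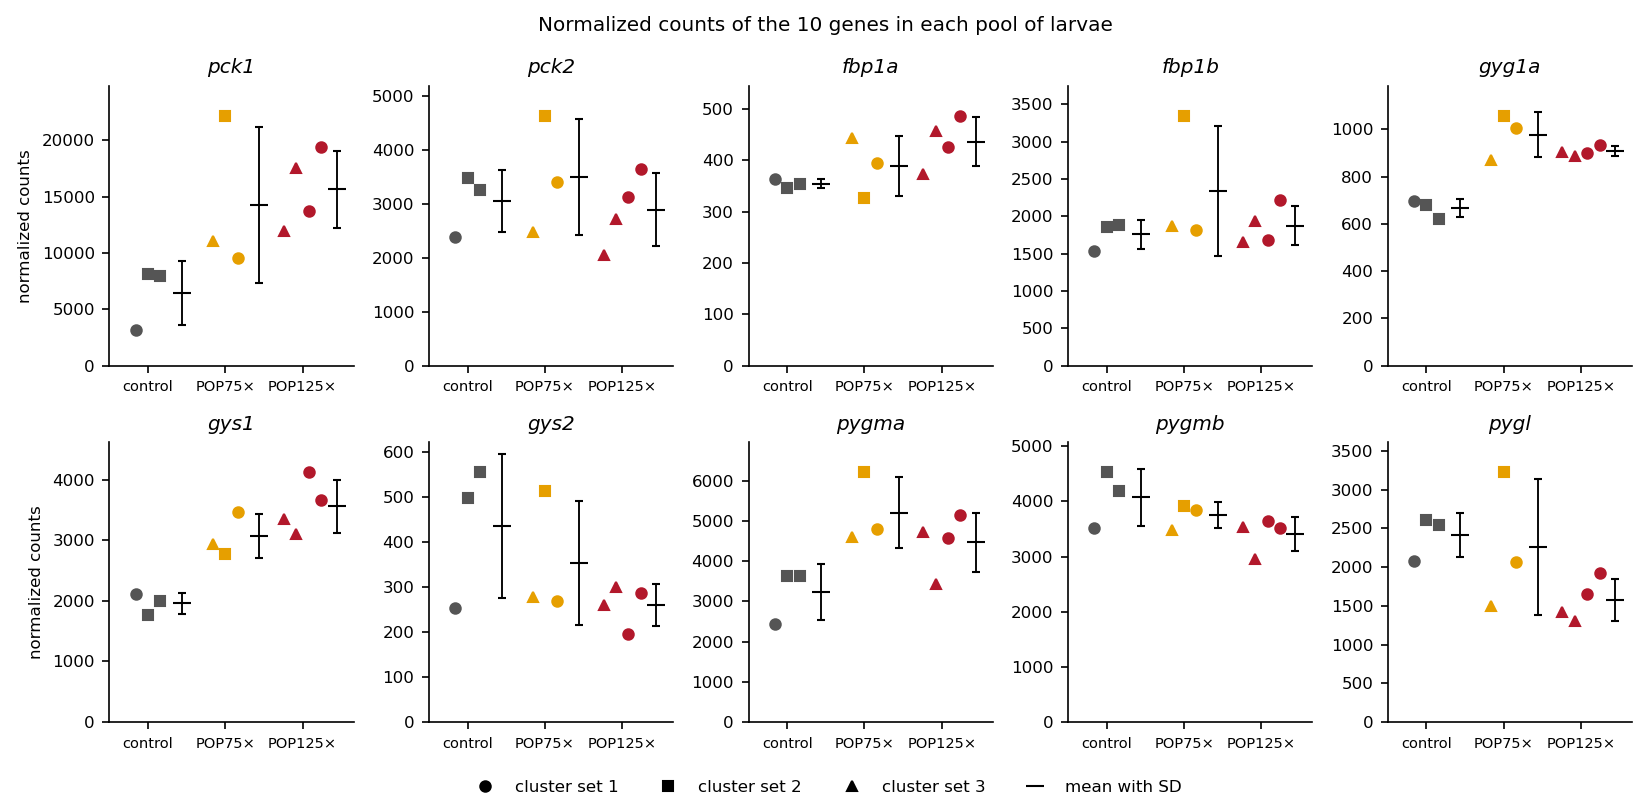
Normalized counts (vertical axis, from 0) of the 10 genes in each pool of larvae, by group (horizontal axis), with the mean and SD of the group beside the points and the cluster set as the symbol. The *gys1* and *gyg1a* points of both exposed groups lie above all control points. In normalized counts POP75× replicate 3 is the highest of all samples for *pck1*, *pck2*, *fbp1b*, *gyg1a*, *pygma* and *pygl*. As a share of the reads on genes of its sample it stays highest for *fbp1b* and *pygl* only.

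**Figure D2:**
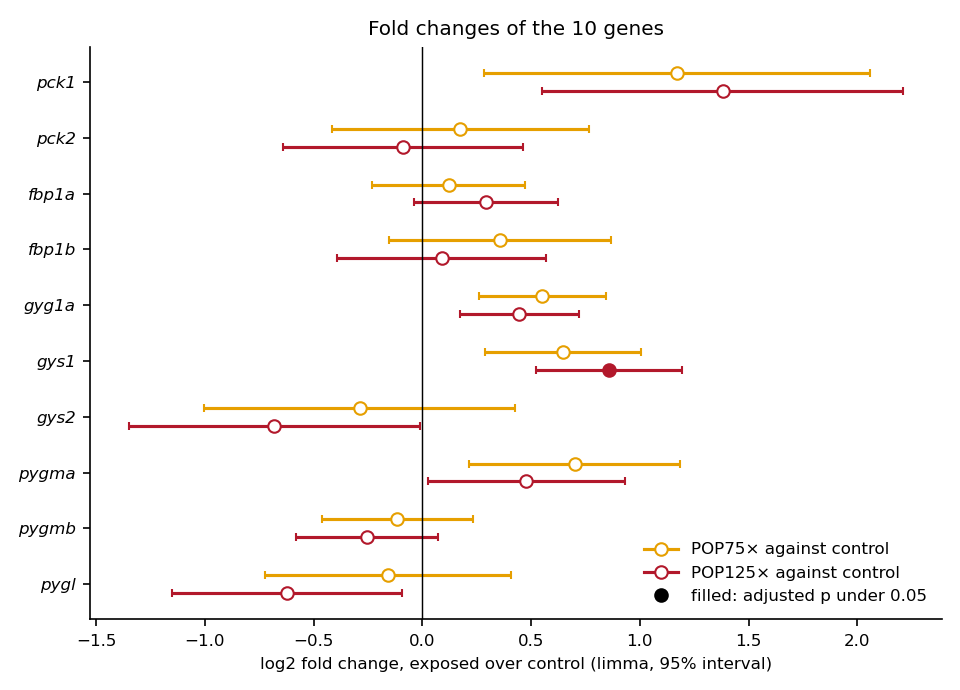
The log2 fold change over control (horizontal axis, limma with its 95% interval) for POP75× and POP125×, 1 gene per row. The *gys1* gene at POP125×, at 0.86, has the filled point that marks an adjusted p under 0.05. The interval of *pck1* is the widest at each dose, from 0.28 to 2.06 at POP75× and 0.55 to 2.21 at POP125×.

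The *pck1* gene (ENSDARG00000013522), for the cytosolic enzyme that commits carbon to glucose, had 11975, 17539, 13714 and 19430 normalized counts in POP125× replicates 1 to 4, against 3170, 8173 and 7942 in control replicates 1, 2 and 4. The 2 groups did not overlap, and control replicate 1 was far below the other control samples. The mean was 15665 ± 3421 in POP125× and 6428 ± 2824 in control samples (SD, n = 4 and 3), a ratio of 2.44. Its log2 fold change was 1.38 (standard error 0.38), the largest of the 10, but the adjusted p of limma was 0.0899 and the gene did not pass. It was 0.93 without control replicate 1, and not past the threshold in any of the 7 fits that left out a library.

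At POP75×, *pck1* had 11086, 22172 and 9540 normalized counts in replicates 2, 3 and 4. All lay above the 3 control samples, and replicate 3 exceeded every POP125× sample in normalized counts. As a share of the reads on genes, replicate 3 (20267255 reads, size factor 0.938) lay below POP125× replicates 2 and 4. The log2 fold change over control was 1.17 (standard error 0.40, limma adjusted p = 0.683), and 0.72 to 1.41 over the 6 fits that left out a library.

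Set against samples of its own cluster set, *pck1* was also higher in the exposed samples. Within set 1, POP125× replicates 3 and 4 had 4.33 and 6.13 times, and POP75× replicate 4 had 3.01 times, the level of control replicate 1. That sample is the only control of set 1 and the low one for *pck1*, at 3170 against 8173 and 7942. The set 1 ratios therefore rest on 1 library. Within set 2, POP75× replicate 3 had 2.75 times the mean of control replicates 2 and 4. It is the only exposed sample of set 2, and its organ marker sums were the highest of all samples. Its skeletal muscle sum was 2013230 normalized counts, against 1281671 and 1260329 in those control samples. With the set as a further term in limma, the log2 fold change of *pck1* was 2.20 at POP125× (adjusted p = 3.87e-05) and 1.58 at POP75× (adjusted p = 0.000331). That fit also has control replicate 1 as its only control in set 1. Since set 3 has no control, POP125× replicates 1 and 2 enter the fit only by way of POP75× replicate 2, and the sets were found in the same expression values. The fit with the set as a term gave *pck2* log2 fold changes of 0.46 and 0.49 and *fbp1b* 0.51 and 0.58 at POP125× and POP75×, all past the threshold in that fit alone.

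The mitochondrial *pck2* (ENSDARG00000020956) had 2045, 2722, 3130 and 3645 normalized counts in POP125× samples, against 2392, 3481 and 3259 in control samples. The groups overlapped. Its log2 fold change was -0.090 at POP125× (95% interval -0.64 to 0.46) and 0.17 at POP75× (-0.42 to 0.76), and at POP125× it was 0.065 without replicate 1 of that dose.

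Of the fructose-1,6-bisphosphatase genes, *fbp1a* (ENSDARG00000021366) had 374, 457, 426 and 486 normalized counts in POP125× samples, against 364, 346 and 353 in control samples. The ranges came close, at 374 in the lowest POP125× sample and 364 in the highest control sample. Its log2 fold change was 0.29 (standard error 0.15, limma adjusted p = 0.288). At POP75× the values were 444, 327 and 395, with the lowest of all samples in replicate 3. The *fbp1b* gene (ENSDARG00000020364) had 1655 to 2219 normalized counts in POP125× samples and 1537 to 1879 in control samples, which overlapped, with a log2 fold change of 0.088 (standard error 0.22). Its POP75× replicate 3 stood at 3343, against 1813 and 1865 in the other samples of that dose.

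In glycogen synthesis, *gys1* (ENSDARG00000016875) had 3348, 3103, 4123 and 3662 normalized counts in POP125× samples, against 2114, 1766 and 1991 in control samples. The groups were far apart relative to their spread, with a mean of 3559 ± 440.1 in POP125× and 1957 ± 176 in control samples (SD, n = 4 and 3). This is a log2 fold change of 0.86 (standard error 0.15, 95% interval 0.52 to 1.19, limma adjusted p = 0.0219). The edgeR test on the recovered reads gave 0.86 (adjusted p = 0.0294) and called 1.32% of all genes, and DESeq2 gave 0.86 (adjusted p = 3.26e-06) and called 7.46%.

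The size of the *gys1* difference held when libraries were left out, at 0.78 to 0.92 on the log2 scale, while the call did not always hold. It was kept without POP125× replicate 1 or control replicate 1. It was lost without POP125× replicate 2, 3 or 4 and without control replicate 2 or 4, where the adjusted p of limma reached 0.147. The fits that lost it called 38 to 56 of all genes tested, against 366 with all samples. It was also lost with total reads as the scaling (0.93, limma adjusted p = 0.0704), in a fit that called 188 of all genes tested.

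At POP75×, *gys1* had 2944, 2780 and 3472 normalized counts, all above the control samples and with 1 value above the lowest 2 of POP125×. Over control this was a log2 fold change of 0.64 (standard error 0.16, limma adjusted p = 0.458). It was past the threshold with DESeq2 (0.65, adjusted p = 0.0194) and with the cluster set as a term (0.64, adjusted p = 0.00374). With total reads as the scaling it was 0.62 (standard error 0.23, limma adjusted p = 0.908). On that scaling POP75× replicate 3 lay below control replicate 1, so the groups overlapped. Within set 1, POP125× replicates 3 and 4 and POP75× replicate 4 had 1.95, 1.73 and 1.64 times the level of control replicate 1. Within set 2, POP75× replicate 3 had 1.48 times the control mean. Set 1 has no other control sample, and set 2 no other exposed sample.

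Glycogenin *gyg1a* (ENSDARG00000011934), the protein primer on which glycogen is built, varied little within the groups. It had 905, 885, 899 and 935 normalized counts in POP125× samples, against 695, 679 and 622 in control samples, and 871, 1056 and 1005 in POP75× samples. Neither exposed group overlapped the control group, and the SD was 21.0 in POP125×, 95.5 in POP75× and 38.0 in control samples. Its log2 fold change was 0.45 at POP125× (standard error 0.12, limma adjusted p = 0.0929) and 0.55 at POP75× (standard error 0.13, limma adjusted p = 0.434), not past the threshold. DESeq2 called it at both doses, with adjusted p of 0.00525 and 0.00420.

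The other glycogen synthase gene, *gys2* (ENSDARG00000004904), whose mammalian counterpart is the liver form, lay on the other side. It had 260, 300, 195 and 286 normalized counts in POP125× samples, against 254, 498 and 555 in control samples. Control replicate 1 lay inside the POP125× range and the other control samples above it. On the log2 scale the difference was -0.68 (standard error 0.30, limma adjusted p = 0.233). Leaving out control replicate 1 gave -1.03 and leaving out control replicate 4 gave -0.47, and it was -0.089 with the cluster set as a term. At POP75× the values were 278, 514 and 270.

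Of the muscle-type phosphorylase genes, *pygma* (ENSDARG00000055518) had 4726, 3439, 4574 and 5154 normalized counts in POP125× samples, against 2424, 3626 and 3642 in control samples. Replicate 2 of POP125× overlapped the control samples. Its log2 fold change was 0.48 (limma adjusted p = 0.219, standard error 0.21), and 0.28 without control replicate 1. The POP75× samples, with 4608, 6212 and 4797, all lay above the control samples, at a log2 fold change of 0.70 (standard error 0.22, limma adjusted p = 0.619). With the cluster set as a term the values were 0.86 at POP125× and 0.91 at POP75×, past the threshold with adjusted p of 0.00239 and 0.00229. The paralog *pygmb* (ENSDARG00000013317) had 2958 to 3646 normalized counts in POP125×, 3482 to 3924 in POP75× and 3515 to 4531 in control samples. Its log2 fold change was -0.25 at POP125× (95% interval -0.58 to 0.073). How any reads shared by these paralogs were assigned is not given in the sources used here, and their sequences were not compared.

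The liver-type phosphorylase gene *pygl* (ENSDARG00000002197), through which glycogen is released as glucose for other organs, had 1425, 1299, 1658 and 1918 normalized counts in POP125× samples, against 2084, 2604 and 2549 in control samples. All POP125× values were below the control range, at a mean ratio of 0.653. In limma the difference was -0.62 on the log2 scale (standard error 0.24, adjusted p = 0.180). It stayed between -0.73 and -0.54 over the 7 fits that left out a library and was -0.078 with the cluster set as a term. At POP75× the values ran from 1493 in replicate 2 to 3226 in replicate 3, across the control range.

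The summed level of the 15 liver markers was 52783 to 79480 normalized counts in POP125× samples and 55234 to 90705 in control samples, and their median log2 fold change was -0.052, with none past the threshold. That of the 18 skeletal muscle markers was 921718 to 1044211 in POP125× and 844191 to 1281671 in control samples, with a median log2 fold change of -0.088 and none past the threshold. The 9 exocrine pancreas markers, also with no call, had a median of -0.86, with sums of 13732 to 39034 in POP125× samples, against 15735 in control replicate 1 and 72768 and 70806 in control replicates 2 and 4. The part of these cell types in the values of *gys2* and *pygl* was not tested.

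Ratios of 2 related genes within a sample do not depend on the scaling of the sample. They were formed after the values were seen and are given without a test. The ratio of *pygma* to *pygl* was 3.32, 2.65, 2.76 and 2.69 in POP125× samples, against 1.16, 1.39 and 1.43 in control samples, and it was 3.09, 1.93 and 2.32 in POP75× samples. The control samples lay below the exposed samples in both cluster sets that hold a control. Of these, set 1 has only replicate 1 as control, and set 2 only POP75× replicate 3 as exposed sample. The ratio of *gys1* to *gys2* was 12.9, 10.3, 21.1 and 12.8 in POP125× samples, against 8.33, 3.55 and 3.59 in control samples, and the ratio of 5.41 in POP75× replicate 3 fell between the control values. The ratio of *pck1* to *pck2* was 5.86, 6.44, 4.38 and 5.33 in POP125× samples, against 1.33, 2.35 and 2.44 in control samples, and it was 4.48, 4.79 and 2.81 in POP75× samples.

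**Figure D3:**
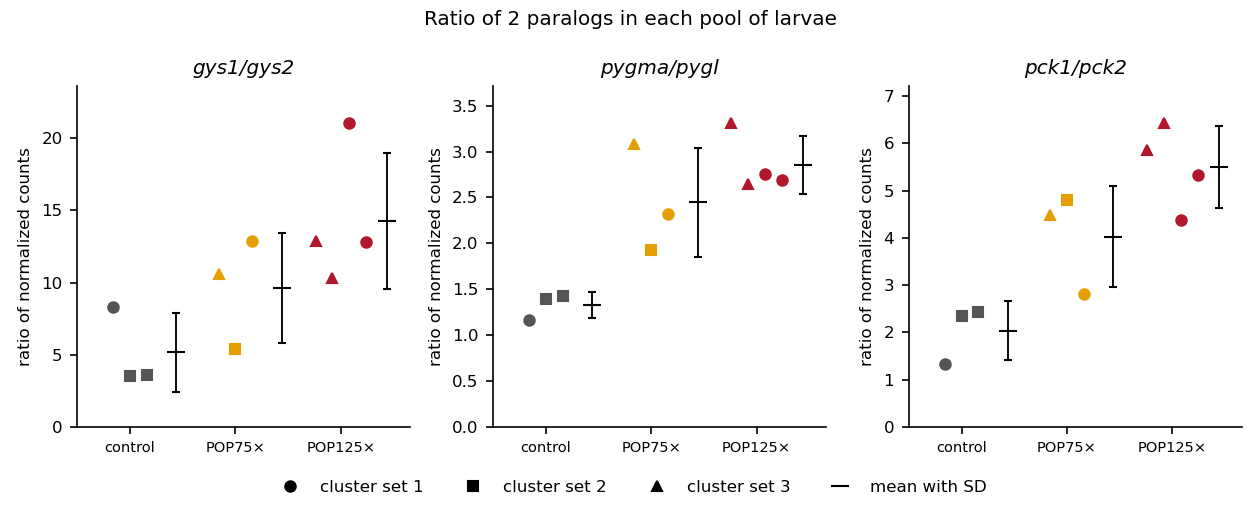
Ratio of the normalized counts of 2 related genes (vertical axis, from 0) in each pool of larvae, by group (horizontal axis), with the mean and SD of the group beside the points and the cluster set as the symbol. For *pygma*/*pygl* and *pck1*/*pck2* every exposed sample lies above every control sample, while for *gys1*/*gys2* POP75× replicate 3 lies within the control range.

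How far the calls depended on the fit differed between the genes. Of 19 alternative fits of POP125× against control, 13 called *gys1*, 4 *pck1* (DESeq2, total reads as scaling, 2 groups in the fit and the cluster set as a term), 3 *gyg1a* and none *pygl*, *gys2*, *pygmb* or *fbp1a*. The log2 fold change of *gys1* was 0.78 to 0.93 over these fits, that of *gyg1a* 0.40 to 0.52 and that of *pck1* 0.93 to 2.20. With the cluster set as a term 6 of the 10 genes were called at each dose (*pck1*, *pck2*, *fbp1b*, *gys1*, *gyg1a* and *pygma*), all higher than control, where that fit called 12.6% of all genes at POP125× and 4.67% at POP75×. The only control of set 1, replicate 1, was the lowest control sample for *pck1*, *pck2*, *fbp1b* and *pygma*. It was the highest for *gys1* and *gyg1a*.

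**Figure D4:**
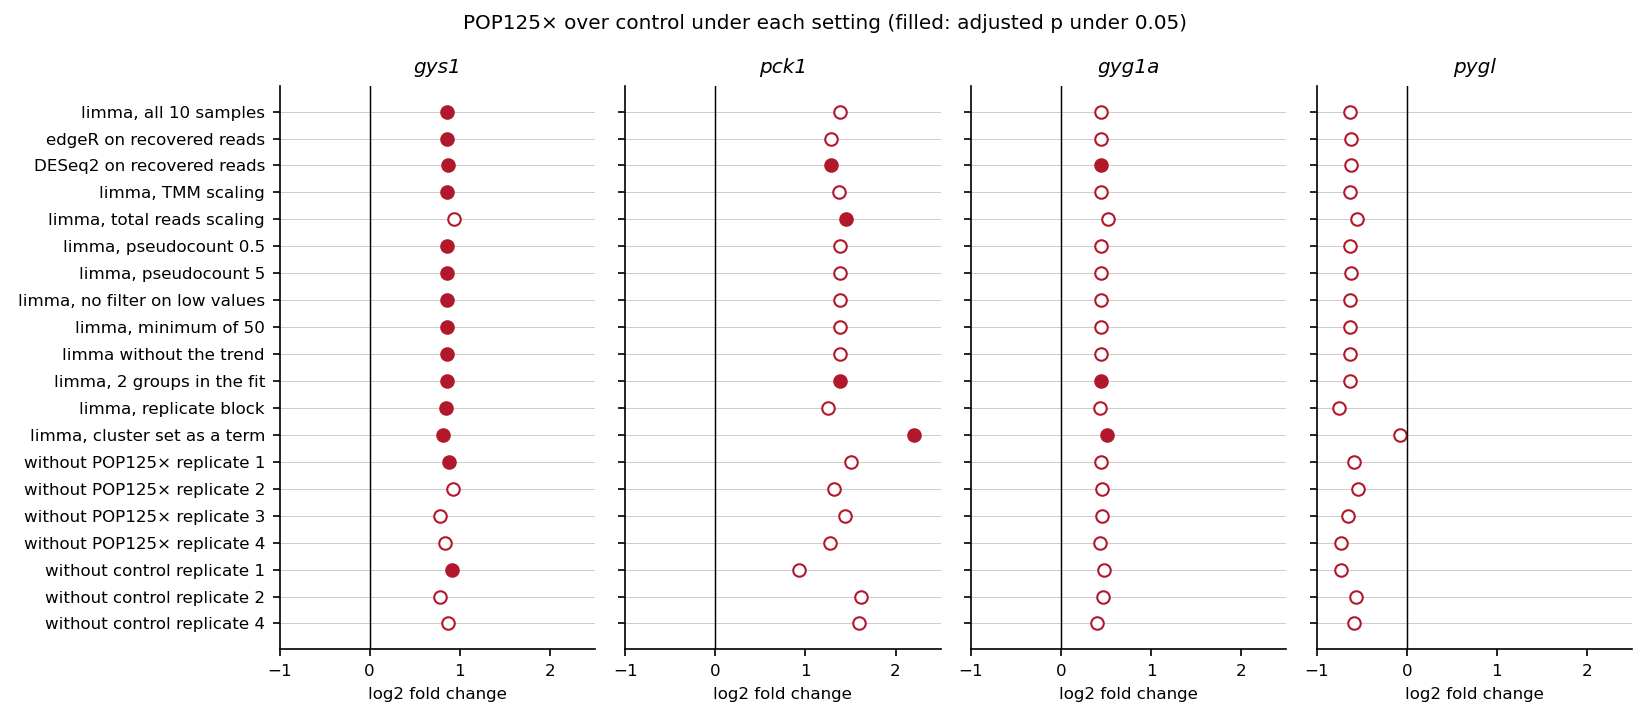
The log2 fold change of POP125× over control (horizontal axis) for *gys1*, *pck1*, *gyg1a* and *pygl* under each setting (rows), with filled points for an adjusted p under 0.05. The *gys1* points stay between 0.78 and 0.93 and 6 of them are open, 5 with a library left out and 1 with total reads as scaling, and the *pygl* point moves to -0.078 with the cluster set as a term.

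Between the doses, no gene of the 10 passed the limma test, which called 0% of all genes, and none with edgeR (0% of all genes), DESeq2 (0.102%) or the cluster set as a term (0.283%). In limma none had an unadjusted p under 0.05. With DESeq2 *pygl* had one (0.0451), and with the cluster set as a term *pygl* (0.0359) and *pck1* (0.00169, at a log2 difference of 0.62) did. The groups overlapped for all 10, where 5.69% of all tested genes did not overlap. The log2 difference of POP125× minus POP75× was 0.21 for *gys1* (95% interval -0.12 to 0.55), 0.21 for *pck1* (-0.62 to 1.04), -0.11 for *gyg1a* (-0.38 to 0.17), -0.22 for *pygma* (-0.67 to 0.23) and -0.47 for *pygl* (-0.99 to 0.064). For *pygl* the difference was -0.17 without POP75× replicate 3 and -0.73 without POP75× replicate 2 (unadjusted p = 0.00854 in limma, adjusted p = 0.341). Without POP75× replicate 3 it was -0.088 for *pygma* and 0.58 for *pck1*, and without POP75× replicate 4 it was -0.028 for *pck1*. The *gys1* difference was 0.14 to 0.31 over the 7 fits that left out a library, lowest without POP125× replicate 3.

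Other enzymes of the same pathways were counted from lists. For each list, the share over all genes tested was 1.35% called higher and 0.348% called lower at POP125× in limma. Of 24 other gluconeogenesis genes tested, 5 rose at POP125× and none fell, with a median log2 fold change of 0.28. They were *g6pca.1* (1.08, glucose-6-phosphatase, which frees glucose at the end of the path), *got1* (0.99, cytosolic aspartate aminotransferase), *gpt2* (0.84, alanine aminotransferase), *mdh1ab* (0.71, cytosolic malate dehydrogenase) and *gpib* (0.81, glucose-6-phosphate isomerase, shared with glycolysis and named after its value was seen). The *g6pca.1* gene had 187, 203, 269 and 283 normalized counts in POP125× samples, against 115, 116 and 98.5 in control samples, and the limma adjusted p was 0.0235. Its POP75× samples, at 202, 291 and 262, all lay above the control samples as well. No gene of the list was called without POP125× replicate 2, 3 or 4 or without control replicate 2 or 4, in fits that called 38 to 56 of all genes tested.

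Of 35 other glycogen genes tested, 4 rose at POP125× and none fell, with a median log2 fold change of 0.11. All 4 encode subunits of phosphorylase kinase, the enzyme that activates glycogen phosphorylase. They were *phka1b* (1.35), *phkg1a* (1.46), *phka2* (0.95) and *phkg1b* (1.09). The other subunit genes of the list, *phkg2* (0.55) and *phkb* (-0.47), named after their values were seen, did not pass. The *phka1b* gene had 764, 646, 560 and 619 normalized counts in POP125× samples, against 243, 254 and 256 in control samples (limma adjusted p = 0.00504). It was kept in all 7 fits that left out a library, where the whole list gave 1 to 6 calls. The POP75× samples, at 617, 428 and 609, also lay above the control samples.

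Of 37 glycolysis genes, which break glucose down, 4 rose at POP125× and none fell, with a median of 0.31. They were *hk2* (1.46, hexokinase), *pfkmb* (1.21) and *pfkma* (0.92), for muscle-type phosphofructokinase, and *aldoaa* (1.24, aldolase). The call of *pfkmb* was kept in all 7 fits that left out a library, and the list gave 1 to 4 calls in them. The POP125× values were wholly above the control range for 16 of the 37 glycolysis genes, 11 of the 35 glycogen genes and 8 of the 24 gluconeogenesis genes, beside the 12.4% of all tested genes. They were wholly below it for 2 glycolysis, 3 glycogen and 2 gluconeogenesis genes, beside 11.6% of all tested genes.

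Regulators and hormone targets were counted in the same way, beside the same 1.35% called higher and 0.348% called lower over all genes tested. Of 26 regulators of gluconeogenesis, *sik1* (1.72, a kinase that restrains the cAMP response of this pathway in mammalian liver) was called, in none of the 7 fits that left out a library. Those fits called 38 to 473 of all genes tested. The next in order of p were *klf15* (0.85), *ppargc1a* (0.67) and *foxo1a* (0.99), transcription factors or a coactivator that promote gluconeogenesis in mammals, with limma adjusted p of 0.0899, 0.0979 and 0.102. Of 8 glucocorticoid targets, *fkbp5* (1.27), *cebpd* (1.45) and *klf9* (1.63) rose, and *pdk4* had a log2 fold change of 1.41 (limma adjusted p = 0.0696). No gene of this list was called without POP125× replicate 2, 3 or 4 or without control replicate 2 or 4, in fits that called 38 to 56 of all genes tested. Of 34 clock genes, 1 of which (*per1a*) is also among the glucocorticoid targets, none passed. Their summed level was 40937 and 41724 normalized counts in POP125× replicates 1 and 2 and 43364 in POP75× replicate 2, the samples of set 3, and 53383 to 62723 in all other samples.

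**Figure D5:**
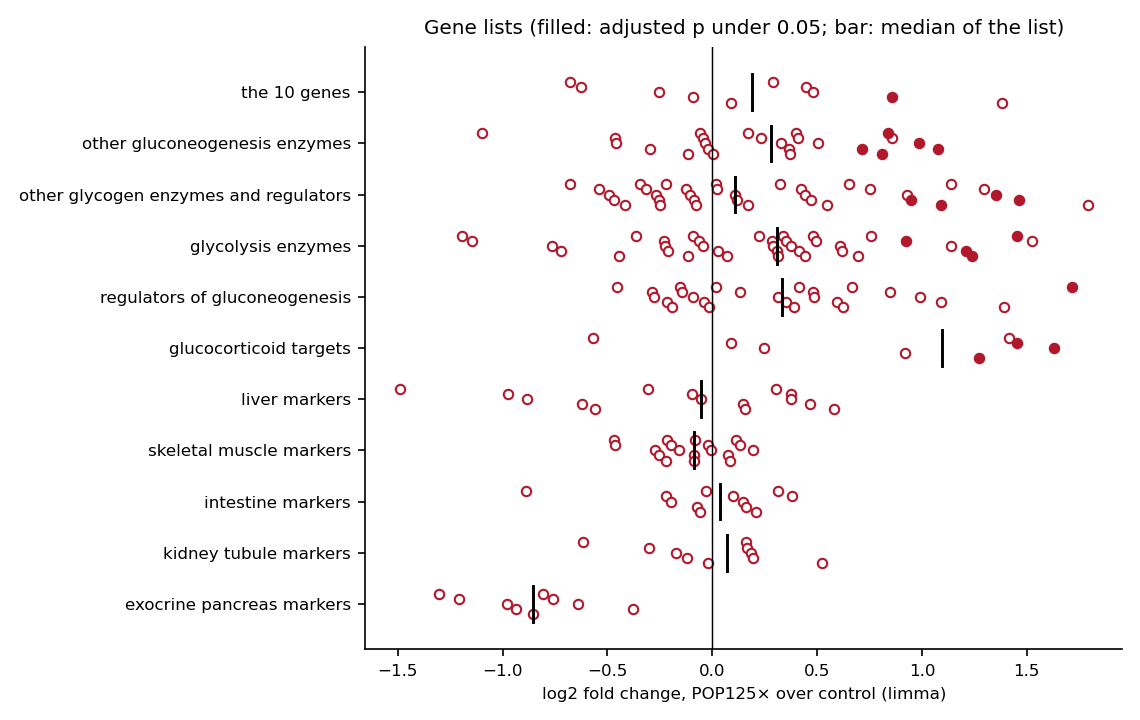
The log2 fold change of POP125× over control (horizontal axis, limma) for the genes of each list (rows), with filled points for an adjusted p under 0.05 and a bar at the median of the list. All filled points lie above 0, the marker lists have no filled point, and the median is lowest for the exocrine pancreas markers, at -0.86.

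At POP75×, none of the genes in these lists passed the limma test, which called 0% of all genes. Their median log2 fold changes were 0.23 for the other gluconeogenesis genes, 0.20 for the other glycogen genes and 0.21 for glycolysis, beside -0.00035 over all genes tested. In POP75× replicates 2, 3 and 4, the glycolysis genes summed to 182082, 308939 and 169513 normalized counts. Their control sums were 118271 to 186585. The other gluconeogenesis genes summed to 60068, 103014 and 62663, against 47734 to 70448 in control samples. The other glycogen genes summed to 28524, 33471 and 29212, against 24803 to 29984. Outside replicate 3, each of these POP75× sums lay within the control range. Both doses are compared with the same 3 control samples.

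The genes whose log2 values followed *gys1* most closely over the 10 samples were *afg1la*, *aclyb* and *hspb6*, with Pearson r of 0.972, 0.970 and 0.967. They were picked as the highest among all genes tested, and the 10 samples include the group difference itself. The *aclyb* gene, for ATP citrate lyase, had 293, 287, 416 and 301 normalized counts in POP125× samples, against 161, 99.7 and 124 in control samples. The small heat shock protein gene *hspb6* had 1803 to 3900 normalized counts in POP125× samples and 731 to 976 in control samples.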

How the data were processed

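Libraries of stranded poly(A) RNA were read single-end. For mapping and counting, the authors used the nf-core rnaseq pipeline at default settings on GRCz11 with an Ensembl annotation. The deposited table gives, per gene and sample, a signal: the count of reads divided by one DESeq2 size factor, with no pooling of replicates. In every sample 100% of the values were whole multiples of the smallest one (tolerance 1e-06), so reads were recovered. The deposited tables of the authors' own comparisons were not used.

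A gene entered the fit if 3 or more samples had 10 or more normalized counts. The fit was made with limma 3.58.1 (R 4.3.3) on log2 of the value plus a pseudocount of 1, with an intensity trend, all 10 samples and the condition as the only term. Fold changes are on that scale. Adjusted p is by Benjamini-Hochberg over all genes tested. DESeq2 1.42.0 and edgeR 4.0.16 were run on recovered reads. Other alternatives were 2 further scalings, pseudocounts, filters, no trend, 2 groups, a replicate block, the cluster set (Euclidean distance, average linkage) as a term, and each library left out. Counts of the other lists under these settings were added after seeing the data.

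All 10 genes are named. From each other list at most 4 genes of lowest p, or every call where there were 5 or fewer, are named. The genes and lists were chosen with earlier results of these data known. The labels say that treatments were repeated in separate experiments but not which samples these gave, so p-values measure the spread between pools, which may be technical. The precision of a count follows its depth, at least 209 reads here. No sequences or coordinates are given, since the tables at hand are of another assembly. Plots were drawn with matplotlib 3.10.9.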

Additional observations from a re-analysis of the deposited data

How the results depend on the processing

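At POP125×, the count of the 10 genes past the threshold was 1 in the fit reported, 3 with DESeq2, 3 with 2 groups in the fit (1534 of all genes) and 6 with the cluster set as a term. With each library left out it was 0 to 1, in fits that called 38 to 473 of all genes. Total reads as scaling also gave 1 (188 of all genes), but this was *pck1* and not *gys1*. That scaling moved the median log2 fold change of all genes to 0.063. At POP75×, the count was 0 in the fit reported, 2 with DESeq2 and 6 with the cluster set as a term. It was 0 with each library left out, and between the doses it was 0 under every setting run. The cause of these differences was not tested. The fits with the set as a term use sets found in the same values, with 1 control sample in set 1 and none in set 3.

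Directions turned for few values. The log2 fold change of *pck2* at POP125× was 0.46 with the cluster set as a term and -0.25 to 0.065 with each library left out, and at POP75× it was -0.11 with the replicate block and -0.052 to 0.40 with each library left out. That of *pygl* at POP75× was 0.15 with the cluster set as a term and -0.45 to 0.10 with each library left out. That of *fbp1b* was -0.0059 to 0.14 at POP125× and, between the doses, -0.42 to 0.018, and that of *pck1* between the doses -0.028 to 0.58, with each library left out.

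Same-numbered samples deviated together in some pairs and not in others, with r of -0.41 to 0.49 over 8 pairs. Of these pairs, 4 were over 0.1, and 1 of 10 samples was closest to its own number. With the replicate block, limma called 1 of the 10 genes (*gys1*, log2 fold change 0.84) at POP125× and 0 at POP75×, and 1164 of all genes at POP125×, against 366 without it.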
